A study of Homo sapiens with 12 samples.

Results

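The mitochondrial respiratory chain and ATP synthase were represented by 104 protein-coding genes, of which 13 are encoded in mitochondrial DNA and 91 in the nucleus. They were chosen by gene name, as subunits of NADH dehydrogenase (MT-ND and NDUF names), succinate dehydrogenase (SDH), the cytochrome bc1 complex (MT-CYB and UQCR), cytochrome c oxidase (MT-CO and COX) and ATP synthase (MT-ATP and ATP5), with at least 1 CPM (the count scaled to the library total) in at least 6 of 12 libraries. Of 112 protein-coding genes with such names, 104 met this level, out of 12273 genes that met it among the 60483 in the count table. By complex, 52 belonged to complex I, 4 to II, 10 to III, 17 to IV and 21 to V. The name rule also took 8 complex I assembly factors, the retrocopy UQCRHL, ATP5S, which is not a subunit of ATP synthase, COX7A2L, which joins respiratory complexes into supercomplexes, the paralog NDUFA4L2 and the ATP synthase inhibitor ATP5IF1. Among the 8 genes below the level were the muscle forms COX6A2 and COX7A1 and the testis forms COX6B2, COX7B2 and COX8C. COX6A2, COX7A1 and the readthrough gene NDUFC2-KCTD14 had 0 counts in every library, and the other 5 had at most 5 counts in any library.

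Oxidative phosphorylation passes electrons from NADH (complex I) and succinate (complex II) through ubiquinone to complex III, and by cytochrome c to complex IV, which reduces oxygen. Complexes I, III and IV pump protons across the inner mitochondrial membrane, and complex V uses the returning protons to make ATP. Mitochondrial DNA is transcribed from both strands into long precursors that are cut into single messenger RNAs, and it encodes core subunits of complexes I, III, IV and V but none of complex II. All other subunits are nuclear genes whose proteins are imported, so complexes I, III, IV and V each need the products of both genomes.

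The cells were REC1, a human mantle cell lymphoma B-cell line. They received the vehicle DMSO, ibrutinib, which inhibits Bruton tyrosine kinase in the B-cell receptor pathway, SPX5551 (pol5551 in the count table), an antagonist of the chemokine receptor CXCR4, or the combination, and RNA was sampled at 4, 8 and 12 h. The sources used here give no doses, and only this 1 line was profiled. Each treatment and time had 1 library, so the 3 time points served as a treatment's replicates and the 4 treatments as a time point's. Nothing says that they came from separate cultures, and p-values reflect the spread among these libraries alone. Poly(A) RNA was sequenced per the labels' protocols, although the molecule and library source fields name genomic DNA; the values were read as RNA. In bulk RNA, fewer cells of a type and less RNA per cell cannot be told apart.

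The treatment of each column in the count table was taken from its header, which matches the sample titles. The sample descriptions pair the libraries with other columns: the combination column with DMSO, the DMSO column with ibrutinib, the ibrutinib column with SPX5551 and the SPX5551 column with the combination, at each time. Which pairing is right cannot be told apart by these genes, so every treatment comparison below holds for the headers only. Times are the same under both pairings. Libraries held 19336303 to 28934030 counts. Summed B-cell markers ranged from 2404 to 3470 CPM and CCND1, the cyclin overexpressed in mantle cell lymphoma, from 1390 to 1711 CPM. T-cell markers summed to 6.58 to 10.7 CPM, myeloid markers to 1.07 to 2.11 and stromal or epithelial markers to 23.1 to 58.6 CPM, of which PDGFRB was 15.4 to 49.1.

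The 13 mitochondrial transcripts took 4.92% (DMSO, 8 h) to 7.22% (DMSO, 4 h) of all counts, and the 91 nuclear members together 1.195% (ibrutinib, 8 h) to 1.595% (SPX5551, 12 h). The summed mitochondrial level was 3.18 times (SPX5551, 8 h) to 5.34 times (DMSO, 4 h) the summed nuclear level. Per length, as mean RPKM (CPM divided by the length in kilobases) over the 12 libraries, MT-CO3 stood highest at 13935, followed by the other catalytic-core oxidase genes MT-CO2 at 8990 and MT-CO1 at 7173. MT-ATP6, the proton channel subunit of ATP synthase, was at 6807 RPKM and MT-ND4, a proton-pumping subunit of complex I, at 5980. MT-ND1 (4340 RPKM), MT-ND2 (3941), MT-CYB (3264) and MT-ND3 (2845) followed. MT-ND4L was at 1856 RPKM, MT-ATP8 at 1226, MT-ND5 at 1160 and MT-ND6, the only one transcribed from the other strand, at 124. The median RPKM was 3941 for mitochondrial and 101 for nuclear members.

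How these messages end and overlap bears on how their reads are assigned. The last 18 annotated bases of 5 of them (GRCh38, GENCODE) have the bases of the final codon in capitals. MT-CO3, MT-ND4 and MT-ND1 are among 6 of 13 whose stop codon is incomplete in the DNA and is finished by the poly(A) tail, whereas MT-CO1 and MT-ND6 end on complete codons.
MT-CO3: tctattgatgagggtctT
MT-ND4: ttaccgggttttcctctT
MT-ND1: cattccccctcaaaccTA
MT-CO1: gtatacataaaatctAGA
MT-ND6: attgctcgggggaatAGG
MT-ATP8 and MT-ATP6 are carried on 1 message and share 46 bases at chrM:8527-8572 on the plus strand, with the MT-ATP6 start codon in capitals.
MT-ATP8/MT-ATP6: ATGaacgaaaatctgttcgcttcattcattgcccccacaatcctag
These bases are 22.2% of MT-ATP8 and 6.8% of MT-ATP6. MT-ATP8 was at 3.26% (DMSO, 8 h) to 8.24% (ibrutinib, 12 h) of the MT-ATP6 CPM. MT-ND4L and MT-ND4, also on 1 message, share 7 bases. The rule by which shared bases were counted is not given in the sources used here, so levels of MT-ATP8 and MT-ND4L relative to their partners are uncertain. A nuclear copy of MT-ATP6, MTATP6P1 on chromosome 1 (98.53% identical over 681 bases), held 17.72% to 20.03% as many counts as MT-ATP6 itself, and the copies MTCO1P12 and MTND2P28 held at most 0.15% and 0.2% of their genes' counts.

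At 8 h or 12 h against 4 h, more mitochondrial transcripts were called than in any treatment comparison, and so were more of all genes. Between 8 h and 12 h this did not hold, with 0 of 13 mitochondrial genes and 9.08% of all genes called. At 8 h and 12 h against 4 h, 26.6% and 35.9% of all genes were called, and in no treatment comparison more than 13.7%. At 8 h against 4 h, 8 of 13 were lower, 5 did not pass and none was higher, at a Benjamini-Hochberg adjusted p under 0.05 in edgeR's quasi-likelihood test, when 26.6% of all 14412 genes were called, 13.1% higher and 13.4% lower. All 13 fitted log2 fold changes were negative, with a median of -0.33 against 0.01 for all genes tested. MT-ND6 fell by 0.58 on the log2 scale (SE 0.14, adjusted p = 0.0055). MT-ATP6 fell by 0.43 (adjusted p = 0.0040), MT-CO3 by 0.40, MT-ND2 by 0.37, MT-CO2 and MT-CO1 each by 0.33, MT-CYB by 0.30 and MT-ND4 by 0.29. For 7 of these 8 the ranges of the 4 h and 8 h libraries did not overlap, MT-ND4 being the exception. How many of all tested genes had separate ranges was not counted.

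The values behind these calls were as follows. MT-CO3, a core oxidase subunit, was at 14084, 11876, 11969 and 13262 CPM at 4 h in DMSO, ibrutinib, SPX5551 and the combination, and at 9645, 9374, 10437 and 10209 CPM at 8 h in the same order. MT-ATP6 was at 6422, 4886, 4984 and 5265 CPM at 4 h and at 3937, 4274, 4024 and 4109 CPM at 8 h. The DMSO library was the highest at 4 h for both genes, and every 8 h library was below every 4 h library. MT-ND6 was at 108.6, 77.4, 79.2 and 71.9 CPM at 4 h and at 45.9, 58.4, 61.8 and 63.8 CPM at 8 h. MT-ND2 was at 5638, 4159, 4382 and 4472 CPM at 4 h and at 3562, 3841, 3629 and 3648 CPM at 8 h. For these complex I subunits too, DMSO was highest at 4 h and lowest at 8 h.

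**Figure D1:**
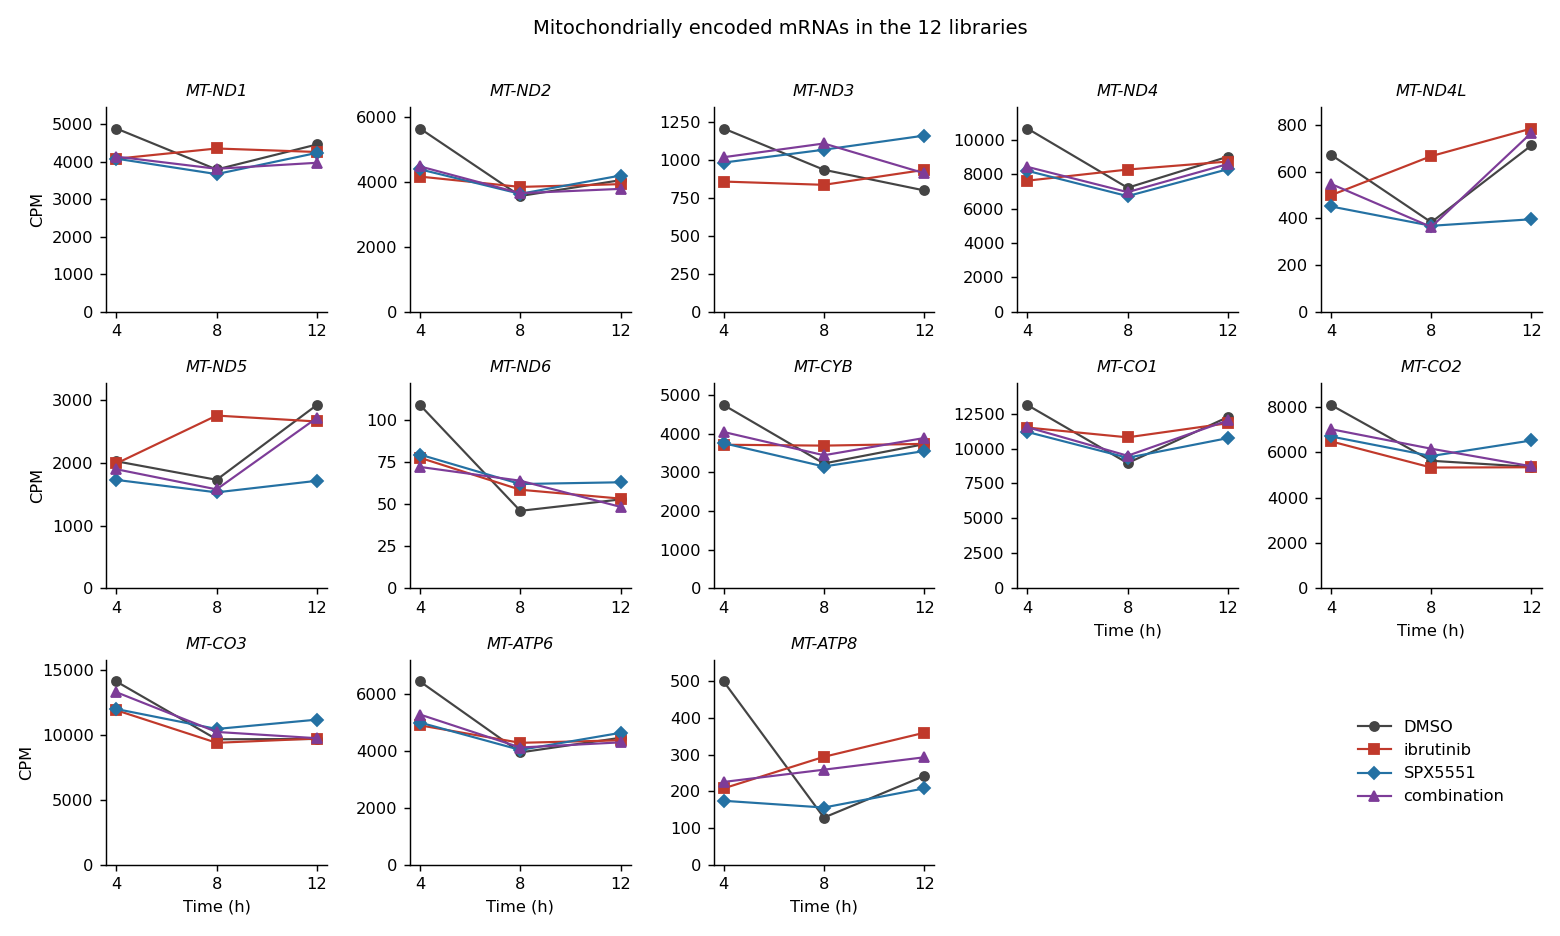
Each panel plots 1 of the 13 mitochondrially encoded genes, with CPM on the vertical axis from 0 and time in hours on the horizontal axis; each point is 1 library and each line 1 treatment. DMSO at 4 h is the highest of the 4 h libraries for every gene, and most genes are lower at 8 h, whereas MT-ND5 at 12 h is higher in DMSO, ibrutinib and the combination (2657 to 2919 CPM) than in SPX5551 (1712 CPM).

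The 4 h DMSO library was the highest 4 h library for all 13 genes. All 13 mitochondrial members were above their own 12-library mean there, with a median deviation of 0.47 on the log2 scale, and 0 of 13 were above it in DMSO at 8 h (median -0.16). Of all 104 members, 14 were called at 8 h against 4 h. Leaving out the 4 h DMSO library left 7 called (5 mitochondrial) and leaving out the 8 h DMSO library 5 (3 mitochondrial). The total was 9 without the 8 h SPX5551 library (5 mitochondrial) or the 4 h combination library (5 mitochondrial), and 22 without the 8 h ibrutinib library. MT-ND6, MT-CO3 and MT-ATP6 passed with each of the 12 libraries left out in turn; MT-ND2 and MT-CO1 lost the call only without the 8 h DMSO library (adjusted p = 0.0565 and 0.0641). The other 3 mitochondrial calls were less steady: MT-CYB was lost in 4 of the 12 fits, MT-CO2 in 5 and MT-ND4 in 7. With the trend of all genes with length and GC content removed, 7 of the 8 remained, and the 104 members split into 12 higher and 11 lower, against 4 and 10 without that step and 7 and 8 with library size scaling only.

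At 12 h against 4 h, 5 of 13 mitochondrial genes were lower and none was higher (35.9% of all genes were called, 18.4% higher and 17.5% lower). MT-ND6 was lowest (log2 fold change -0.72 ± 0.14, SE; adjusted p = 0.00087), at 52.7, 53.2, 62.8 and 48.3 CPM at 12 h in DMSO, ibrutinib, SPX5551 and the combination. MT-CO3 fell by 0.43, MT-CO2 by 0.41, MT-ATP6 by 0.36 and MT-ND2 by 0.31. The ranges of MT-ND6, MT-CO3 and MT-ATP6 did not overlap with those at 4 h. MT-ND5, the last pump subunit of complex I, was at 0.28 and MT-ND4L at 0.16, and neither passed. With the length and GC trend removed, 5 were lower and 1 higher, and the median over the 13 went from -0.18 to -0.03. Against 8 h, 0 of 13 were called at 12 h in edgeR (9.08% of all genes, 4.41% higher and 4.66% lower), with 3 at an unadjusted p under 0.05. There was 1 called in DESeq2 and in limma-voom, and 2 in edgeR with library size scaling only or with the length and GC trend removed.

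Neither drug alone, nor the combination, moved any mitochondrial transcript past the threshold against DMSO in edgeR, DESeq2 or limma-voom. In edgeR, 0.104%, 0% and 9.57% of all genes were called for ibrutinib, SPX5551 and the combination. For either drug alone, 0 of 13 therefore says little about these genes. At an unadjusted p under 0.05 there were 0 for ibrutinib, 3 for SPX5551 and 1 for the combination. MT-CO1 was at 13114, 8958 and 12251 CPM in the 4, 8 and 12 h DMSO libraries, at 11501, 10800 and 11811 in ibrutinib, at 11185, 9339 and 10746 in SPX5551 and at 11527, 9483 and 12009 in the combination. MT-CYB, the core of complex III, was at 4744, 3231 and 3729 CPM in DMSO, at 3715, 3692 and 3738 in ibrutinib, at 3755, 3152 and 3552 in SPX5551 and at 4045, 3443 and 3889 in the combination. The ranges of all treatments overlapped that of DMSO for both genes. The medians over the 13 genes were -0.11 for ibrutinib, -0.14 for SPX5551 and -0.17 for the combination, all against the same DMSO libraries. At matched times, the median difference from DMSO was -0.45, -0.39 and -0.33 at 4 h for ibrutinib, SPX5551 and the combination, with all 13 lower each time. It was 0.16, 0.01 and 0.02 at 8 h and -0.01, -0.04 and -0.13 at 12 h.

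MT-ND5 and MT-ND4L were the exceptions among treatments. In the 6 SPX5551-exposed libraries (SPX5551 and the combination) against the 6 without it, with 7.01% of all genes called and 4.89% lower, MT-ND4L fell by 0.42 (SE 0.12, adjusted p = 0.047) and MT-ND5 by 0.37 (SE 0.10, adjusted p = 0.032). MT-ND5 was at 2023, 1728 and 2919 CPM in the 4, 8 and 12 h DMSO libraries, 1988, 2751 and 2657 in ibrutinib, 1727, 1528 and 1712 in SPX5551 and 1896, 1575 and 2713 in the combination. MT-ND4L was at 672.5, 383.5 and 712.9 CPM in DMSO, 499.2, 666.7 and 785.0 in ibrutinib, 451.1, 368.3 and 396.4 in SPX5551 and 547.7, 363.4 and 766.9 in the combination. All SPX5551 libraries were low, but the 12 h combination library was among the highest, and exposed and unexposed ranges overlapped for both. The MT-ND5 call was lost without any 1 of 7 libraries (12 h DMSO, 4 h DMSO, 12 h SPX5551, 8 h SPX5551, 4 h combination, 8 h combination, 8 h ibrutinib; adjusted p 0.0506 to 0.113). That of MT-ND4L was lost without any 1 of 8, the same 7 and 12 h ibrutinib, with a highest adjusted p of 0.169. MT-ND4L also missed the threshold in DESeq2 (adjusted p = 0.0708) and limma-voom (0.0503), and neither gene was called with library size scaling only (0.0755 and 0.057). With the length and GC trend removed, 4 mitochondrial genes were called, all lower. MT-CO3 was 331% (DMSO, 12 h) to 699% (combination, 4 h) of MT-ND5 in CPM, so the balance between these messages varied across libraries.

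Nuclear members moved as a block from library to library. Of the 91, those above their own 12-library mean numbered 70, 83 and 7 in DMSO at 4, 8 and 12 h, 16, 6 and 8 in ibrutinib, 79, 85 and 86 in SPX5551, and 45, 79 and 13 in the combination. Their median deviation ranged from -0.27 (ibrutinib, 8 h) to 0.24 (SPX5551, 8 h). The dependence of all tested genes on transcript length moved with it: the Spearman rho between each gene's deviation and its length, across genes within a library, ran from -0.40 in SPX5551 at 8 h to 0.42 in ibrutinib at 8 h, and genes are not independent replicates. It was positive in the 5 libraries with the fewest nuclear members above their mean (0.37 in DMSO at 12 h, 0.18, 0.42 and 0.32 in ibrutinib at 4, 8 and 12 h, 0.23 in the combination at 12 h) and negative in the other 7. PDGFRB, the main gene of the stromal marker sum, was at 39.95 CPM in DMSO at 12 h and 40.5 in the combination at 12 h. In ibrutinib it was at 26.9, 49.1 and 43.1 at 4, 8 and 12 h, against 15.4 to 31.2 in the other 7 libraries. Other genes of that list did not follow: EPCAM was at 3.9 to 6.1 CPM in these 5 libraries and 3.9 to 8.3 in the other 7. COL1A1 was at 0.47 to 1.30 and 0.25 to 1.31, and KRT8 at 1.86 to 4.14 and 1.91 to 4.49. The B-cell marker PAX5 was higher in the 5, at 477 to 700 against 290 to 444 CPM. The part of any of these genes in the nuclear pattern was not tested. Nuclear members are short, with a median annotated length of 761 bases against 2311 for all tested genes with a length. With the length and GC trend removed, the medians shrank to between -0.12 (ibrutinib, 8 h) and 0.12 (SPX5551, 8 h).

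**Figure D2:**
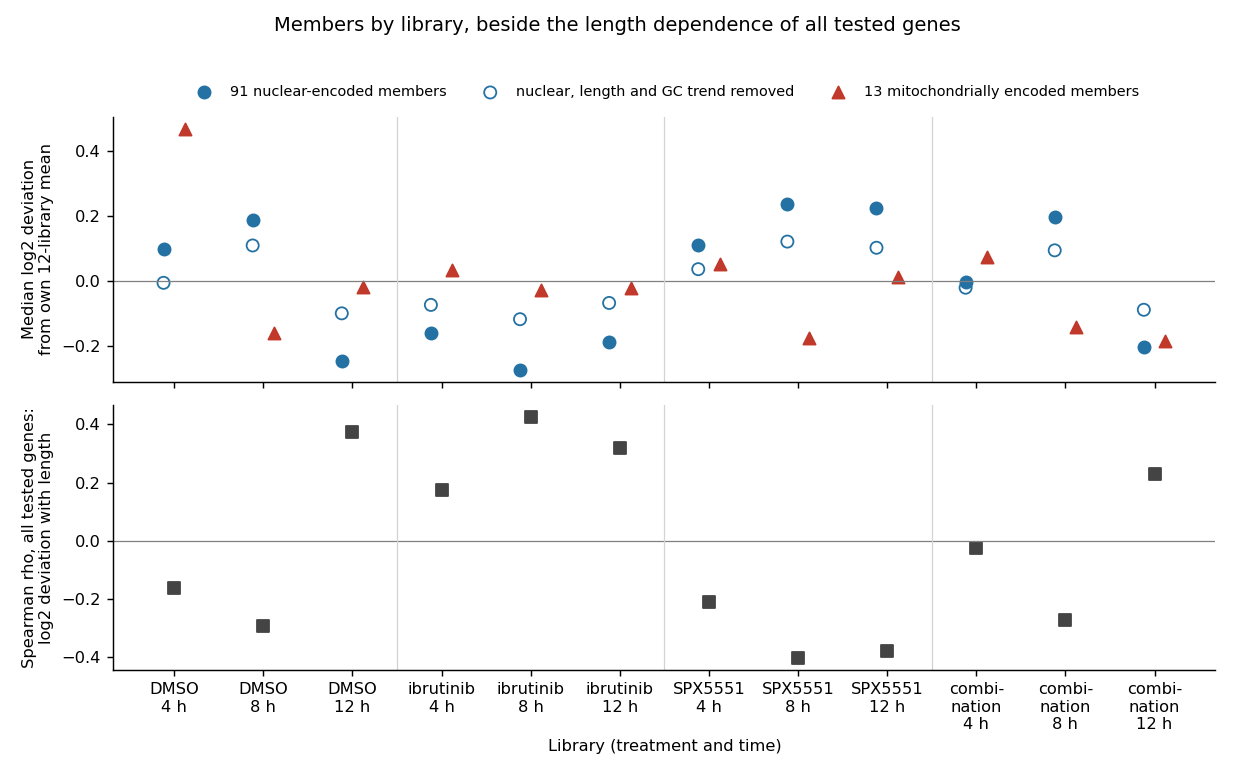
The upper panel plots the median log2 deviation from each gene's own 12-library mean for the 91 nuclear members (filled circles), the same with the length and GC trend removed (open circles) and the 13 mitochondrial members (triangles); the lower panel plots Spearman's rho of deviation with length over all tested genes, per library. The nuclear median is lowest in the 5 libraries where rho is above 0, and the mitochondrial median is highest, at 0.47, in DMSO at 4 h.

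Complex II, the only one without a mitochondrial gene, did not stand apart in every library. Its 4 genes were at -0.05 on average in ibrutinib at 8 h, where nuclear complexes I, III, IV and V were at -0.25, -0.26, -0.30 and -0.26. In DMSO at 4 h it was at -0.113, against 0.109, 0.159, 0.114 and 0.098 for the same complexes. In ibrutinib at 4 h it was at -0.159, against -0.122, -0.127, -0.154 and -0.179. In SPX5551 at 8 h it was at 0.185, against 0.171, 0.215, 0.264 and 0.229. Of the nuclear complexes, IV spanned the widest range, from -0.32 in DMSO at 12 h to 0.26 in SPX5551 at 8 h. These are descriptions of single libraries, and no difference between complexes was tested.

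**Figure D3:**
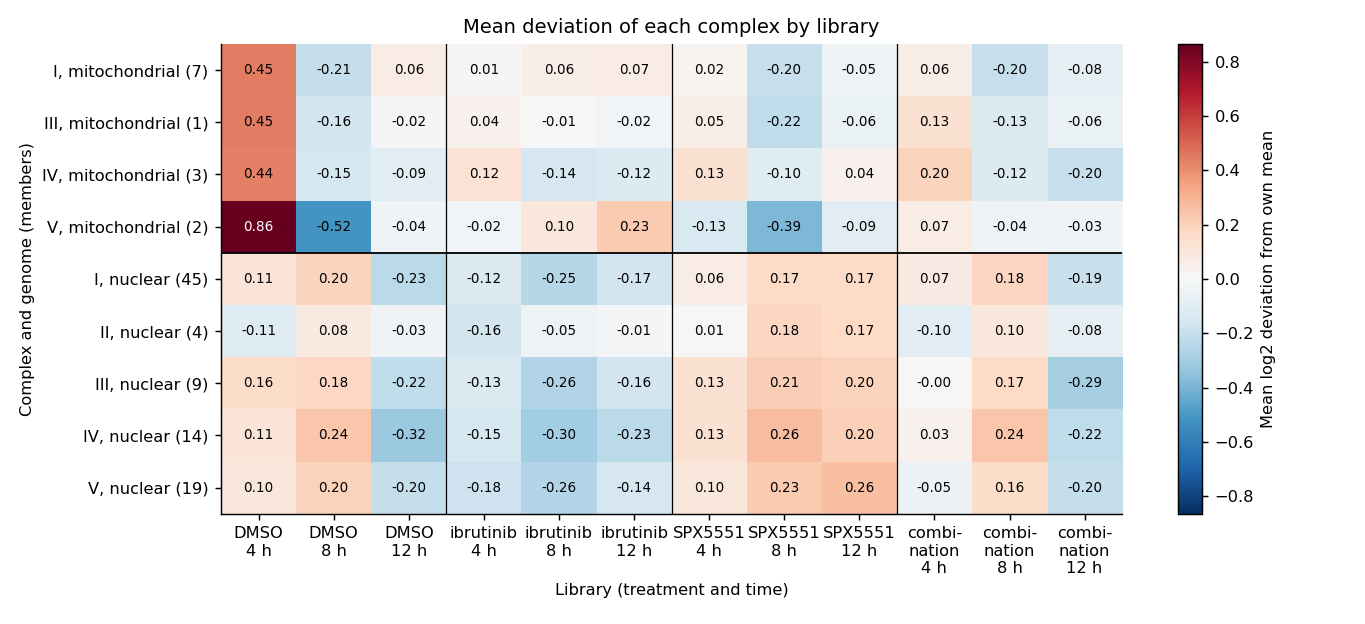
Each cell gives the mean log2 deviation of the members of 1 complex and genome (rows, with the number of members) in 1 library (columns), red above and blue below each gene's own mean. The mitochondrial rows are highest in DMSO at 4 h (0.44 to 0.865), whereas nuclear complexes I, III, IV and V are low in every ibrutinib library and in DMSO and the combination at 12 h.

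Against DMSO, ibrutinib changed 0 of 104 members in edgeR, DESeq2 or limma-voom (0.104% of all genes were called in edgeR). Without the 12 h time point 40 members were called, all nuclear and all lower, and with no filter on low counts 2. The share of all genes called in these refits is not given here, so these counts cannot be set against it. At an unadjusted p under 0.05 there were 33, all nuclear, and the smallest adjusted p was 0.45. The share of all tested genes at that cutoff is likewise not given here. The median of the nuclear members was -0.23 against 0.01 for all tested genes, and 88 of 91 fold changes were negative. With the length and GC trend removed, the nuclear median was -0.10. At matched times the 4, 8 and 12 h nuclear medians were -0.24, -0.50 and 0.07.

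Comparing the 6 ibrutinib-exposed libraries (ibrutinib and the combination) with the 6 unexposed ones, 29 nuclear members were lower, none was higher and 0 of 13 mitochondrial members were called in edgeR or DESeq2, with 0 at an unadjusted p under 0.05 (13.7% of all genes called, 6.58% lower and 7.14% higher). By complex, 12 of 45 nuclear complex I members, 0 of 4 of complex II, 3 of 9 of III, 6 of 14 of IV and 8 of 19 of V were lower. NDUFAF8, a complex I assembly factor, had the largest decrease, -0.47 ± 0.10 (SE; adjusted p = 0.010). Its lowest, median and highest CPM were 18.8, 21.0 and 25.7 in exposed and 21.0, 29.8 and 32.9 in unexposed libraries. ATP5MD, a small membrane subunit that helps ATP synthase dimerise, fell by 0.39 ± 0.08 (adjusted p = 0.0096), with 128.6, 148.0 and 183.5 CPM in exposed and 142.7, 194.5 and 225.3 in unexposed libraries. UQCR11, a small subunit of complex III, fell by 0.34 ± 0.08 (adjusted p = 0.016), from a median of 52.4 to one of 40.8 CPM. For these 3 genes the 12 h DMSO library was the lowest of the unexposed libraries, inside the exposed range. Over all 104 members, 0 had ranges that did not overlap.

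Other decreases by complex were of similar size. In complex I, NDUFAF4, another assembly factor, and NDUFC2, a membrane-arm subunit, each fell by 0.36. In complex III, UQCRB, which binds near the ubiquinone site, fell by 0.29 and UQCRH, the hinge protein, by 0.25. In complex IV, COX4I2, an isoform induced by low oxygen, fell by 0.32, COX6B1 by 0.28 and COX6A1 by 0.27, the last pair being subunits of the ubiquitous enzyme. In complex V, ATP5MC1, a gene for the rotating c-ring, fell by 0.31 and ATP5MPL by 0.29.

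The number of calls moved with single libraries. Without 1 DMSO library it was 60 (12 h), 11 (4 h) and 7 (8 h); without 1 SPX5551 library 6 (12 h), 41 (4 h) and 14 (8 h); without 1 ibrutinib library 46 (12 h), 17 (4 h) and 10 (8 h); and without 1 combination library 4 (12 h), 10 (4 h) and 47 (8 h). NDUFAF8, ATP5MD and UQCR11 kept the call in all 12. It was 45 in DESeq2, 0 with no term for time, 14 with library size scaling only, and 11 with the length and GC trend removed (9 lower, 2 higher, 1 of them mitochondrial), where the nuclear median went from -0.21 to -0.09. Of all genes, 15.6% were called with library size scaling only and 14.2% with that trend removed, against 13.7%. The share with a library left out is not given here. The part that length dependence plays in the remaining calls was not tested.

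SPX5551 against DMSO changed 0 of 104 members in edgeR (0% of all genes called), DESeq2 or limma-voom, with 14 at an unadjusted p under 0.05. The share of all tested genes at that unadjusted cutoff is not given here. The nuclear median was 0.16 and 81 of 91 fold changes were positive. At matched times the 4, 8 and 12 h nuclear medians were 0.005, 0.002 and 0.48, the last against the low 12 h DMSO library. In the exposed libraries as a whole, 5 nuclear members were higher (2.12% of all genes were higher). NDUFC1, a complex I subunit, rose by 0.37, COX7A2, the common isoform of oxidase subunit 7A, by 0.30, NDUFB5 by 0.28, COX7A2L by 0.24 and ATP5PO, in the stalk of ATP synthase, by 0.22. Their exposed and unexposed ranges overlapped. The 7 calls of this comparison, MT-ND5 and MT-ND4L included, became 0 without any 1 of the 12 h DMSO, 12 h SPX5551, 8 h SPX5551, 4 h combination, 8 h combination or 8 h ibrutinib libraries. They became 2 without 4 h ibrutinib, 3 without 12 h combination, 15 without 8 h DMSO and 21 without 4 h SPX5551. With library size scaling only, 14 members were higher and 0 lower, and with the length and GC trend removed 2 were higher and 4 lower.

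**Figure D4:**
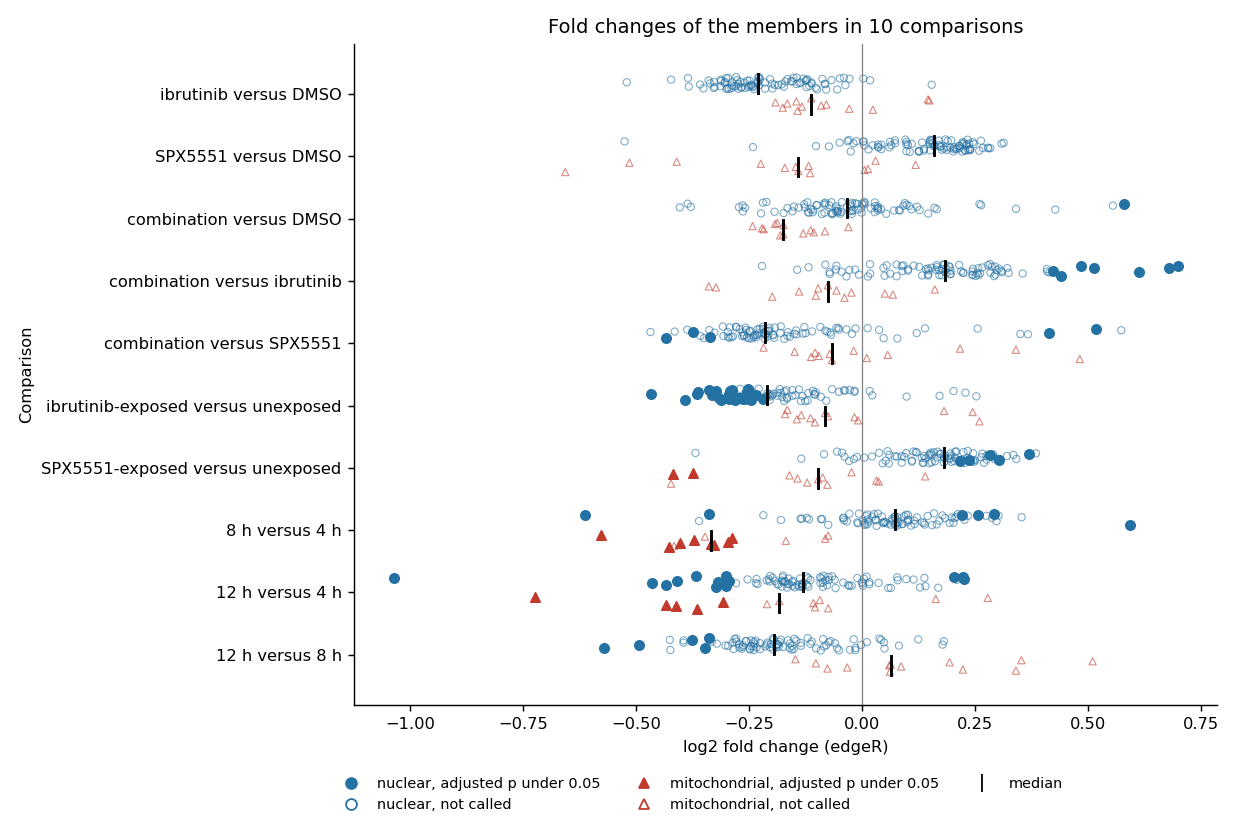
Each point is the log2 fold change of 1 member in edgeR, for 10 comparisons (rows): circles are nuclear and triangles mitochondrial members, filled where the adjusted p was under 0.05, and black bars are medians. The interaction is not drawn. Nuclear members lie mostly left of 0 for ibrutinib (median -0.23) and right of 0 for SPX5551 (median 0.16), and filled triangles appear mainly at 8 h and 12 h against 4 h.

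The combination raised 1 member against DMSO, NDUFS7 (9.57% of all genes called, 4.16% higher and 5.41% lower). NDUFS7, a core subunit that holds the last iron-sulfur cluster before ubiquinone in complex I, lies at chr19:1383527-1395589 on the plus strand (hg38). It was at 51.9, 63.6 and 43.7 CPM in the 4, 8 and 12 h DMSO libraries, 46.8, 49.1 and 53.3 in ibrutinib, 41.4, 63.0 and 63.7 in SPX5551 and 85.3, 94.1 and 71.3 in the combination. All 3 combination libraries were above every other library. The log2 fold change was 0.58 ± 0.15 against DMSO (adjusted p = 0.024), 0.70 ± 0.15 against ibrutinib (adjusted p = 0.018) and 0.52 ± 0.15 against SPX5551 (adjusted p = 0.047), and these comparisons share the combination libraries. Against DMSO the call was lost without the 4, 8 or 12 h DMSO library (adjusted p = 0.0623, 0.0554 and 0.127) or the 4 or 8 h combination library (0.146 and 0.0841). Across all members, 5 were called without 12 h SPX5551, 4 without 4 h SPX5551, 3 without 8 h ibrutinib and 2 without 12 h combination, and with the length and GC trend removed 3 were higher and 5 lower. The gene overlaps the antisense genes AC005329.1 and AC005329.3 over 48.5% of its coding bases, and the counting strand is not given. AC005329.1 held 2.13% to 4.46% as many CPM as NDUFS7, and AC005329.3 at most 0.12%.

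Against ibrutinib alone the combination raised 7 members, all nuclear, and lowered none (5.49% of all genes called, 2.1% higher and 3.39% lower). Beside NDUFS7 these were NDUFB7 (0.68 ± 0.18), NDUFA11 (0.61 ± 0.14), NDUFC1 (0.51 ± 0.14) and the core iron-sulfur subunit NDUFS8 (0.49 ± 0.13) of complex I, ATP5IF1 (0.44 ± 0.12), which blocks reverse action of ATP synthase, and NDUFA4L2 (0.42 ± 0.12), a paralog induced by low oxygen. NDUFB7 was at 41.1, 43.0 and 50.5 CPM in ibrutinib at 4, 8 and 12 h and at 74.0, 85.1 and 63.4 in the combination, with 44.1, 60.5 and 39.8 in DMSO. NDUFA11 was at 15.1, 17.4 and 16.9 CPM in ibrutinib and at 27.3, 28.3 and 22.2 in the combination, with 16.2, 23.1 and 15.95 in DMSO. The combination and ibrutinib ranges were apart for 6 of the 7 genes, NDUFA4L2 being the exception, and were apart for 38 of all 104 members. The share of all tested genes with ranges apart was not counted, so neither number is read as particular to these members. The 7 genes had a median GC content of 62.7% against 49.8% for all nuclear members. With the length and GC trend removed 4 members were called.

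The 7 calls became 0 without any 1 of the 4 h combination, 8 h combination, 4 h ibrutinib or 8 h ibrutinib libraries. They became 2 without 8 h SPX5551, 3 without 4 h DMSO and 4 without 8 h DMSO or 12 h ibrutinib. The interaction, which asks whether the combination differs from the sum of both drugs, gave 0 of 104 members and 0% of all genes in edgeR, and 0 members in DESeq2 or limma-voom. At an unadjusted p under 0.05 there were 5 members, NDUFB7 (0.70), NDUFS7 (0.64), NDUFA11 (0.55), NDUFA4L2 (0.49) and NDUFS8 (0.48), with a smallest adjusted p of 0.77. At such a cutoff about 1 in 20 genes pass with no effect, so 5 of 104 is not read as a result.

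**Figure D5:**
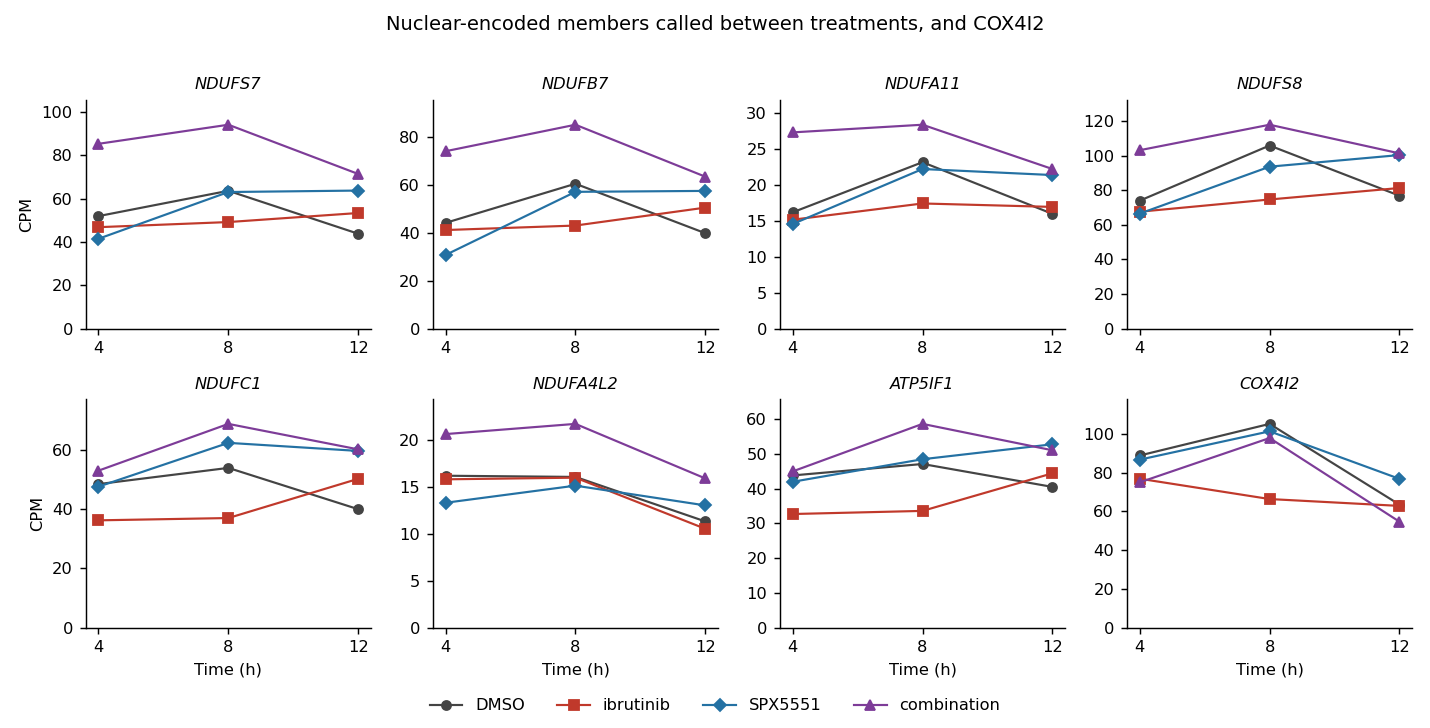
Panels plot CPM (vertical axis from 0) against time in hours for 7 nuclear members higher in the combination than in ibrutinib, and for COX4I2; points are single libraries and lines treatments. For NDUFS7 the combination lies between 71.3 and 94.1 CPM, above all other libraries.

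Against SPX5551 alone the combination raised NDUFS7 and NDUFA4L2 (0.41 ± 0.12) and lowered 3 members (7.24% of all genes called, 3.27% higher and 3.97% lower). NDUFA4L2 was at 13.3, 15.2 and 13.04 CPM in SPX5551 and at 20.7, 21.7 and 15.9 in the combination at 4, 8 and 12 h. ATP5MD fell by 0.43, NDUFAF6, an assembly factor, by 0.37 and ATP5PB, a stator subunit of ATP synthase, by 0.34. ATP5PB was at 381.7, 423.8 and 464.4 CPM in SPX5551 and at 327.3, 360.7 and 360.9 in the combination. The ranges were apart for all 5 genes, and for 17 of 104 members. Here too, the share over all tested genes was not counted. The 5 calls became 0 without 8 h SPX5551, 1 without the 12 h or 4 h combination or the 4 h ibrutinib library, 3 without 4 h DMSO or 12 h SPX5551, 10 without 8 h combination, 11 without 12 h DMSO and 12 without 8 h ibrutinib. With library size scaling only, 3 were higher and 2 lower.

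Across time, succinate dehydrogenase was the complex with calls only upward. Of all genes, 13.1% were higher at 8 h against 4 h and 18.4% at 12 h against 4 h. With only 4 genes, the direction of the calls is not read as a trait of this complex. SDHA, the flavoprotein that oxidises succinate, rose by 0.26 at 8 h against 4 h, and SDHD, a membrane anchor, by 0.22. At 12 h against 4 h, SDHC, the other anchor, rose by 0.22 and SDHD by 0.20, whereas SDHB, the iron-sulfur subunit, was not called at either time. SDHA was at 98.2, 101.7, 101.5 and 91.4 CPM at 4 h in DMSO, ibrutinib, SPX5551 and the combination, and at 120.7, 116.6, 114.2 and 128.3 at 8 h. Every 8 h library was above every 4 h library for SDHA, but the share of all tested genes with separate ranges was not counted. SDHD was at 111.2, 114.1, 139.4 and 131.6 CPM at 4 h, at 143.7, 132.0, 171.3 and 145.0 at 8 h and at 143.2, 147.6, 171.7 and 143.4 at 12 h. Its 8 h call was lost without any 1 of 6 libraries, and that of SDHA without 4 h DMSO (adjusted p = 0.0534), 8 h DMSO (0.0632), 4 h combination (0.0926) or 8 h combination (0.0899). Named pseudogenes of SDHA held 21.67% as many counts as SDHA, and 47.7% of the coding bases of SDHD are shared with AP002884.3, which had 0 CPM in every library.

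Other nuclear members that changed with time came from complexes I, III, IV and V. At 8 h against 4 h, 6 of 91 nuclear members were called in all, when 26.6% of all genes were. ATP5F1D, the delta subunit in the rotor of ATP synthase, rose by 0.59 at 8 h (adjusted p = 0.0041), from 49.3 CPM in DMSO, 40.5 in ibrutinib, 36.5 in SPX5551 and 52.5 in the combination at 4 h to 73.9, 53.6, 68.0 and 81.8 at 8 h, and was at 45.5, 51.0, 64.2 and 51.3 at 12 h. UQCRC2, a core-protein subunit of complex III, fell by 0.34 at 8 h (adjusted p = 0.0026), from 221.1, 216.3, 215.4 and 224.6 CPM to 180.6, 180.1, 177.9 and 171.5, and by 0.30 at 12 h. For both genes the 4 h and 8 h ranges were apart, and the 8 h calls held with each library left out. The share of all tested genes with ranges apart was not counted. UQCR11 rose by 0.29 at 8 h, with overlapping ranges, and lost the call in 7 of 12 such fits.

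At 12 h against 4 h, 3 of 91 nuclear members were higher and 10 lower, when 18.4% of all genes were higher and 17.5% lower. NDUFS1, the largest core subunit of complex I, rose by 0.23, and COX4I2 fell by 0.43, UQCRFS1, the Rieske iron-sulfur protein of complex III, by 0.37, ATP5MC2 by 0.32 and COX4I1, the common isoform of oxidase subunit 4, by 0.30. NDUFA4L2 fell by 0.46 and 3 assembly factors by 0.29 to 0.41. NDUFV2 fell by 1.04, but at 0.74 to 2.96 CPM, with 84.7% of its coding bases shared with AP005263.1 and a pseudogene holding 131.69% of its counts. The 18 calls of this comparison became 28 without 12 h SPX5551, 12 without 12 h DMSO or 4 h combination, and 10 without 12 h combination or 4 h ibrutinib. With library size scaling only, 6 were higher and 11 lower, and 8 and 19 after removing the length and GC trend. Between 8 h and 12 h, COX4I2 (-0.57), NDUFA4L2 (-0.49), NDUFV1 (-0.38), COX4I1 (-0.35) and UQCRFS1 (-0.34) were lower at 12 h. These 5 became 0 without any 1 of 12 h DMSO, 8 h DMSO, 12 h combination or 8 h combination, 1 without 12 h ibrutinib, 3 without 4 h DMSO, 8 h SPX5551 or 4 h combination, 34 without 8 h ibrutinib and 37 without 12 h SPX5551. With library size scaling only, 2 were higher and 3 lower, and 3 and 7 after removing that trend, when 8.47% and 10.3% of all genes were called. The share with a library left out is not given here.

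Promoters of 3 nuclear members higher at 8 h, and of NDUFA11 for comparison, are shown because they hold letters that match nuclear respiratory factor 1 (NRF1) or ETS-family motifs, which are known in promoters of respiratory genes. They were chosen after the values were seen. Each is the 180 bases before the RefSeq start (GRCh38.p14), read 5′ to 3′ on the gene's strand, with matches on either strand in capitals, to GCGCA, any base and GCGC for NRF1 or CCGGAAGT for ETS.
SDHA, chr5:218140-218319, plus strand: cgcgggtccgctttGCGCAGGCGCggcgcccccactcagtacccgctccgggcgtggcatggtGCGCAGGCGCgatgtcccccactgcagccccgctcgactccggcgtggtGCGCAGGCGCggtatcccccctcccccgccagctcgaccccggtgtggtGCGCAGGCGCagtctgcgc
SDHD, chr11:112086693-112086872, plus strand: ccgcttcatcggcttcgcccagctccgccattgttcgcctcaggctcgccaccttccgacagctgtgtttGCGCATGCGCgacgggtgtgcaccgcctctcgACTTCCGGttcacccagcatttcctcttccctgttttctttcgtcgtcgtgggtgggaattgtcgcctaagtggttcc
UQCR11, chr19:1605463-1605642, minus strand: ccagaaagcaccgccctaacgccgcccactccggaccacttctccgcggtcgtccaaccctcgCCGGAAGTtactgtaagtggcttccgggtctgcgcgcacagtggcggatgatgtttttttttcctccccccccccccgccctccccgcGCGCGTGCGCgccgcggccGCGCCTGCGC
NDUFA11, chr19:5903791-5903970, minus strand: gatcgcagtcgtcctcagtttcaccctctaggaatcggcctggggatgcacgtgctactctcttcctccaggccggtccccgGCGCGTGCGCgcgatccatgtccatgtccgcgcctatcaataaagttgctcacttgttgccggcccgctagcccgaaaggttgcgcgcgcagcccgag
SDHA holds 4 NRF1 matches and no ETS match, SDHD 1 of each, UQCR11 2 NRF1 and 1 ETS, and NDUFA11 1 NRF1.

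Of the 91 nuclear members, 73 matched a RefSeq promoter by symbol. Over the 250 bases before the start, 14 of 73 (19.2%) held the NRF1 letters, against 11% of 9469 tested protein-coding genes and 5.53% of all 27305 promoters. The ETS letters were in 10 (13.7%, against 7.67% and 3.64%) and the YY1 letters AAGATGGCG in 1 (1.37%, against 1.14% and 0.641%). No matches of different motifs overlapped. A match describes letters in a window and does not show binding.

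Paralogs and extremes of level filled out the nuclear picture. Per length, the highest nuclear member of each complex was ATP5F1B, the catalytic beta subunit of ATP synthase, at a mean of 1491 RPKM, UQCRB at 544, COX6B1 at 477, NDUFB9, a complex I accessory subunit, at 342 and SDHC at 175. The lowest in each complex were NDUFA13 at 1.43, UQCRHL at 3.36, NDUFA4L2 at 13.2, ATP5S at 28.1 and SDHA at 51.9. NDUFA13 shares 55.2% and NDUFA7, at 0.93 to 1.54 CPM, 78.3% of coding bases with other genes on the same strand. So do 14 nuclear members in all to some degree, UQCR11 over all its bases, and their levels are uncertain because the counting rule is not given. Per length, COX4I2 was at 115.0 RPKM and COX4I1 at 292, NDUFA4L2 at 13.2 and NDUFA4 at 153, and UQCRHL at 3.36 and UQCRH, with which it is 98.06% identical over 515 bases, at 465. The c-ring genes ATP5MC1, ATP5MC3 and ATP5MC2 were at 171, 307 and 475 RPKM. Across libraries, the CPM of COX4I2 was 27.7% (combination, 12 h) to 38.5% (DMSO, 4 h) of that of COX4I1, and that of NDUFA4L2 3.33% to 6.8% of that of NDUFA4.

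Genes that build and maintain the chain were followed in lists made by function. In the combination against DMSO, 2 of 12 mitochondrial transcription and replication genes were lower, when 5.41% of all genes were: TWNK, the mitochondrial DNA helicase, fell by 0.69 and TFB2M, a transcription factor of the mitochondrial polymerase, by 0.40. TWNK was at 155.3, 128.6 and 142.5 CPM in DMSO, 147.6, 133.1 and 134.0 in ibrutinib, 137.4, 113.4 and 118.0 in SPX5551 and 93.7, 88.9 and 95.3 in the combination, whose libraries were all below the others. Of 23 complex IV assembly genes, 2 were lower, COA7 by 0.72 and COX10 by 0.30. COA7 was at 94.7, 81.2 and 94.4 CPM in DMSO and at 65.4, 48.0 and 61.2 in the combination. Of 9 nuclear regulators, 3 were lower, led by MYC, by 1.06, and the coactivator PPRC1, by 0.71. For mitochondrial RNA stability and processing it was 7 of 17, PNPT1 among them (-0.45), and for import 4 of 14, with HSPA9 at -0.48. One of 14 tricarboxylic acid cycle genes, CS, fell by 0.32, and BCS1L, 1 of 6 complex III assembly genes, by 0.35. The medians of the transcription, RNA stability and import lists were -0.12, -0.30 and -0.27 against 0.02 for all genes.

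In ibrutinib-exposed against unexposed libraries, 10 of 14 import genes, 6 of 17 RNA stability genes and 3 of 12 transcription and replication genes were lower. Cytochrome c (CYCS, -0.25) was lower too. No gene of these lists was higher, when 6.58% of all genes were lower and 7.14% higher. The import gene HSPE1 was at 71.2 CPM in DMSO at 12 h, inside its exposed range of 57.4 to 75.7 CPM. TIMM10 was at 126.9 CPM there, inside 113.2 to 180.7. Among the members, the 29 calls of this comparison became 11 with the length and GC trend removed. For every list comparison, how the calls change in such refits or with libraries left out is not given here. Over time, 9 of 17 RNA stability genes were lower and 1 higher at 8 h against 4 h, when 13.4% of all genes were lower and 13.1% higher, and FASTKD3 fell by 0.62 and FASTKD5, which processes mitochondrial precursors, by 0.45. At the same time 4 of 12 transcription and replication genes were lower, including TFAM (-0.39), which packs and transcribes mitochondrial DNA, and MTERF1 (-0.43). At 12 h against 4 h, 9 of 14 import genes were lower (17.5% of all genes were), led by TOMM20 (-0.76), and the regulator NRF1 fell by 0.49.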

How the data were processed

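Poly(A) RNA of REC1 cells was sequenced in 12 libraries, 1 for each of 4 treatments at 3 times, with a directional kit, per the labels' protocols. The authors deposited whole-number counts per gene; BWA and hg38 are named in the submitters' processing notes, and the sources used here name no counter, strand setting or rule for shared bases. The authors also deposited log2 CPM of 14767 genes, which held all 104 members and differed by at most 0.031 from log2 CPM recomputed from the counts, and which entered no test. Counts were fitted in edgeR 4.0.16 (R 4.3.3) with the quasi-likelihood test, time and treatment as terms, TMM scaling and filterByExpr, leaving 14412 genes with 99.9% of counts (common biological coefficient of variation 0.101). Exposure comparisons used time, ibrutinib and SPX5551 as terms. Calls have a Benjamini-Hochberg adjusted p under 0.05 over all tested genes, and SE is the fold change over the root of F. The fit was tested on simulated counts.

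CPM is the count scaled to the library total, and RPKM divides it by the annotated length. Deviations are log2 CPM (prior count 2, TMM) minus the gene's mean over 12 libraries. Symbols, positions and lengths came from GENCODE 29, with a symbol for 56753 of 60483 genes (93.8%), and promoters from RefSeq. Length and GC trends were removed with splines of 4 degrees of freedom each. Alternatives were DESeq2 1.42.0, limma-voom 3.58.1, other scalings, no filter, no time term, libraries or times left out, and the columns as described. The members and lists were chosen with earlier results of these data known. Members were named by rule: all mitochondrial genes, per complex and direction the 3 largest called changes, the highest and lowest per length, the SDH genes and paralog sets; NDUFC1, NDUFS8, NDUFAF2, the trend of COX4I1 and non-member genes with the lowest adjusted p were added after values were seen. The numbers pair libraries by time, which the model holds as a term.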

Additional observations from a re-analysis of the deposited data

Results flagged for a closer look

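In groups of 4 or 6 libraries, 23 of 168 groups had a library whose gap to its nearest neighbour, divided by the range, was above Dixon's critical value (0.829 for 4, 0.625 for 6); chance flags about 1 in 20. The groups share libraries, so the flags are not independent. Values are CPM, summed for complexes.

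DMSO at 4 h was the highest of the 4 h libraries for MT-ND1 (4890, next 4140) and MT-ATP8 (499.1, next 225.6). Among the SPX5551-unexposed libraries it was highest for MT-ND2 (5638, next 4159), MT-ND3 (1206, next 934.7), MT-CYB, which is also the mitochondrial part of complex III (4744, next 3738), and the mitochondrial part of complex V (6921, next 5094). MT-ATP8 also stood apart among the ibrutinib-unexposed libraries (499.1, next 241.8). Ibrutinib at 8 h was the lowest of the 8 h libraries for all nuclear members (11950, next 15080), nuclear complex III (1113, next 1493) and nuclear complex IV (1724, next 2469). It was the highest of them for mitochondrial complex I (20800, next 17680), MT-ND4L (666.7, next 383.5) and MT-ND5 (2751, next 1728). Ibrutinib at 4 h was the lowest 4 h library for nuclear complex I (2589, next 2960).

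SPX5551 at 12 h was the highest of the 12 h libraries for MT-CO2 (6518, next 5378), MT-CO3 (11150, next 9727) and nuclear complex V (7924, next 6594). Nuclear complex V was also highest in the combination at 8 h among ibrutinib-exposed libraries (7374, next 6594) and in DMSO at 8 h among SPX5551-unexposed ones (7333, next 6594). In DMSO at 12 h, nuclear complex III was lowest among ibrutinib-unexposed libraries (1167, next 1422) and MT-ND5 highest (2919, next 2023). MT-ND5 was also highest in the combination at 12 h among SPX5551-exposed libraries (2713, next 1896).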

How the results depend on the processing

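With 1 library per treatment and time, small changes rest on few libraries, and depth, at 19336303 counts or more, limits only members near 1 CPM (NDUFA7, NDUFA13, NDUFV2). Of 64 calls of named genes, 0 changed sign outside the columns by description, and 942 recomputed values kept their side of the threshold while 472 lost it. Where a count below differs, the cause was not tested. The share of all genes called differs between fits too. For the combination versus DMSO it was 9.57% as fitted above and 16.2% with the length and GC trend removed. For most refits below that share is not given, so a changed count is not read as a change in these genes alone.

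Leaving out 1 library gave 0 to 5 members for the combination versus DMSO (1 with all libraries), 0 to 9 versus ibrutinib (7) and 0 to 12 versus SPX5551 (5). It gave 4 to 60 for ibrutinib-exposed (29) and 0 to 21 for SPX5551-exposed libraries (7), 5 to 22 for 8 h versus 4 h (14), 10 to 28 for 12 h versus 4 h (18) and 0 to 37 for 12 h versus 8 h (5). It gave 0 throughout for each drug versus DMSO and for the interaction.

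The replicate numbers stand for times, so the block is the time term. Without the replicate block, 0 members were called for the combination versus DMSO, ibrutinib or SPX5551, for either exposure and for 12 h versus 8 h. For 8 h or 12 h versus 4 h, whose block is the treatment, 8 were called each.

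DESeq2 called 3 for the combination versus DMSO, 16 versus SPX5551, 45 for ibrutinib-exposed, 15 for SPX5551-exposed and 12 for 12 h versus 8 h. With no filter on low counts the calls were 2 for ibrutinib, 3 for SPX5551, 6 for the combination (each versus DMSO), 13 and 15 for the combination versus ibrutinib and SPX5551, 2 for the interaction, 47 and 32 for ibrutinib and SPX5551 exposure and 29 for 12 h versus 8 h. With the length and GC trend removed there were 8, 4 and 11 for the combination versus DMSO, ibrutinib and SPX5551, 11 for ibrutinib-exposed, 23 for 8 h versus 4 h and 10 for 12 h versus 8 h. Library size only gave 4 for the combination versus DMSO and 14 for either exposure. Of all genes, 11.3% were then called for the combination versus DMSO, 15.6% for ibrutinib exposure and 5.18% for SPX5551 exposure.

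Without 12 h, ibrutinib versus DMSO gave 40, the combination 3 versus DMSO and 35 versus ibrutinib, the interaction 5, ibrutinib-exposed 2 and SPX5551-exposed 0. Without 4 h the combination gave 0 versus DMSO, ibrutinib and SPX5551, and ibrutinib-exposed 6. Without 8 h the combination gave 0 versus DMSO and ibrutinib and 2 versus SPX5551, and both exposures 0. With the ibrutinib library of 8 h and the SPX5551 library of 12 h both left out, the combination gave 13 versus DMSO and 9 versus SPX5551, ibrutinib-exposed 3, SPX5551-exposed 0, 8 h versus 4 h 45, 12 h versus 4 h 59 and 12 h versus 8 h 73.

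With the columns by description, the calls were 1, 7 and 5 for ibrutinib, SPX5551 and the combination versus DMSO, 0 and 56 for the combination versus ibrutinib and SPX5551, 5 for the interaction, 2 for ibrutinib-exposed and 0 for SPX5551-exposed. The counts versus DMSO repeat, with the sign turned, the header comparisons of the combination with DMSO, ibrutinib and SPX5551. The 0 versus ibrutinib repeats SPX5551 versus DMSO by header. Signs then turned for NDUFS7 versus DMSO (-0.517), NDUFB7 (-0.019) and NDUFA4L2 (-0.073) versus ibrutinib, and NDUFAF6 (0.316), ATP5MD (0.61) and ATP5PB (0.33) versus SPX5551. For ibrutinib exposure they turned for NDUFAF8 (0.466), NDUFAF4 (0.363), NDUFC2 (0.361), UQCR11 (0.338), UQCRB (0.287), UQCRH (0.253), COX4I2 (0.315), COX6B1 (0.276), COX6A1 (0.272), ATP5MD (0.391), ATP5MC1 (0.311) and ATP5MPL (0.293), and for SPX5551 exposure for NDUFC1 (-0.144) and COX7A2 (-0.022). For ibrutinib exposure the turn is fixed by the pairing, because the columns described as exposed are those that the headers name unexposed. The mean summed mitochondrial CPM of ibrutinib (56398) became 59692 by description and 60453 over nuclear counts only. The nuclear means were 12381 for ibrutinib, 15379 for SPX5551 and 14018 for the combination; by description they became 13672, 12381 and 15379, and over nuclear counts only 13271 for ibrutinib and 16462 for SPX5551.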
